A study of Homo sapiens with 24 samples.

Results

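H4K20me3 was compared between HN-SCC-151 cells given siRNAs against SUV420H1 (siSUV420H1, 4 libraries) and the same cells given control siRNAs (siNC, 4 libraries). These are the libraries whose titles name the mark and either siRNA: 8 of the 24 samples of the series and 8 of its 14 H4K20me3 peak lists. HN-SCC-151 is a head and neck squamous cell carcinoma line without HPV, labelled wild type in both groups, and treatment lasted 6 days. The mark was mapped by CUT&RUN on 500000 cells per reaction; in this assay an antibody brings a nuclease to the marked chromatin and the released DNA is sequenced. The series describes 3 dishes per condition, while 4 libraries are titled for each siRNA, so some libraries may come from 1 dish, and a p-value then reflects library-to-library spread that may be partly technical. All cells are of 1 line, and the siRNA sequences were not used here.

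H4K20me3, histone H4 with 3 methyl groups on lysine 20, marks compact, silent chromatin at repeats, centromeres, telomeres and clusters of zinc finger genes. A first enzyme, KMT5A, places the first methyl group during the cell cycle, and SUV420H1 (gene symbol KMT5B) and its paralog SUV420H2 (KMT5C) add the further ones. In mouse cells the mark at heterochromatin lies downstream of H3K9me3 and its reader HP1, which binds the SUV420H enzymes.

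The comparison asked what became of each control domain once SUV420H1 was depleted: whether it vanished whole, shortened or broke up. A control domain was a run of at least 5 kb under peaks in at least 3 of the 4 siNC libraries on chromosomes 1 to 22 and X. In a library, a domain was called lost when no base lay under a peak, fragmented when it held at least 2 separate peaks, trimmed when it held 1 peak over less than 80% of its bases, and kept when 1 peak covered 80% or more. The retained share is the percentage of domain bases under a peak. To give the control level without letting a library define its own domains, each siNC library was measured on domains from the other 3 siNC libraries (held out), and each siSUV420H1 library on those same 4 domain sets.

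Peaks numbered 9307 to 10184 in the siSUV420H1 libraries and 13808 to 14664 in the siNC libraries, and covered 118 to 129 Mb with siSUV420H1 and 183 to 193 Mb with siNC. The Jaccard index of covered bases averaged 0.689 among siSUV420H1 libraries (6 pairs), 0.772 among siNC libraries (6 pairs) and 0.447 between the groups (16 pairs). The lists hold no read counts, so sequencing depth is unknown, and a lost domain is one that was no longer called, which may still hold signal under the calling threshold. A lower level in every cell and a complete loss in some cells cannot be told apart. None of the 8 lists has a peak over KMT5B or KMT5C, and no RNA or protein measure of SUV420H1 was used, so the knockdown itself was not checked.

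The siNC libraries shared 12855 control domains over 171 Mb, with a median width of 9 kb (quartiles 8 and 13 kb) and a widest domain of 407 kb. After siSUV420H1, whole loss was the most frequent fate by number of domains, while kept domains held more of the bases (32.8%) than lost ones (28.0%). A fate was given where at least 3 of the 4 siSUV420H1 libraries showed the same state, and by this rule 5459 domains were lost (42.5%), 1492 trimmed (11.6%), 313 fragmented (2.43%) and 4039 kept (31.4%), while 1552 were mixed (12.1%). All 4 libraries showed the same state in 4587 of the lost, 870 of the trimmed, 231 of the fragmented and 3171 of the kept domains. A siSUV420H1 library lacked 77.7 Mb of the control-domain bases on average, of which 59.9% lay in lost domains, 16.5% in trimmed, 8.23% in fragmented, 11.4% in mixed and 4.03% in kept domains. Most of the missing length thus lay in domains that were gone. With only the widest 9307 peaks of each library, 2693 of 8705 control domains were lost and 3146 kept, and of the 6345 domains of at least 10 kb, 1401 were lost and 2453 kept, so the order by number turned in both. It also turned when only domains under 50% covered counted as trimmed, with 5732 kept and 5459 lost.

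On the held-out measure, siSUV420H1 libraries 1 to 4 retained 53.4%, 52.0%, 52.4% and 51.8% of control-domain bases, against 88.1%, 91.9%, 91.5% and 88.9% in siNC libraries 1 to 4. The groups did not overlap, and the siSUV420H1 libraries lay within a narrower range than the controls. The mean was 52.4% ± 0.711 with siSUV420H1 and 90.1% ± 1.84 with siNC (SD, n = 4 each), a difference of -37.7 percentage points (exact two-sided permutation p = 0.0286, adjusted p = 0.0286 over 5 measures). With 4 libraries against 4, 0.0286 is the smallest p the test can give. Lost domains made up 46.3%, 48.0%, 47.3% and 47.6% of the domains in the siSUV420H1 libraries and 11.7%, 8.003%, 8.66% and 11.3% in the siNC libraries.

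Partial losses were also more frequent after siSUV420H1. Trimmed domains averaged 17.5% ± 0.194 with siSUV420H1 and 7.56% ± 1.54 with siNC, and fragmented domains 3.38% ± 0.184 with siSUV420H1 and 1.98% ± 0.149 with siNC (SD, n = 4 each). Kept domains averaged 31.8% ± 0.650 with siSUV420H1 and 80.5% ± 3.39 with siNC. Each of these differences was past the threshold of 0.05, with an exact permutation p and adjusted p of 0.0286 and no overlap between the groups. The fragmented share was 0.19 percentage points higher, and no longer past the threshold, when domains were drawn as the union of the siNC peaks (exact permutation p = 0.257).

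**Figure D1:**
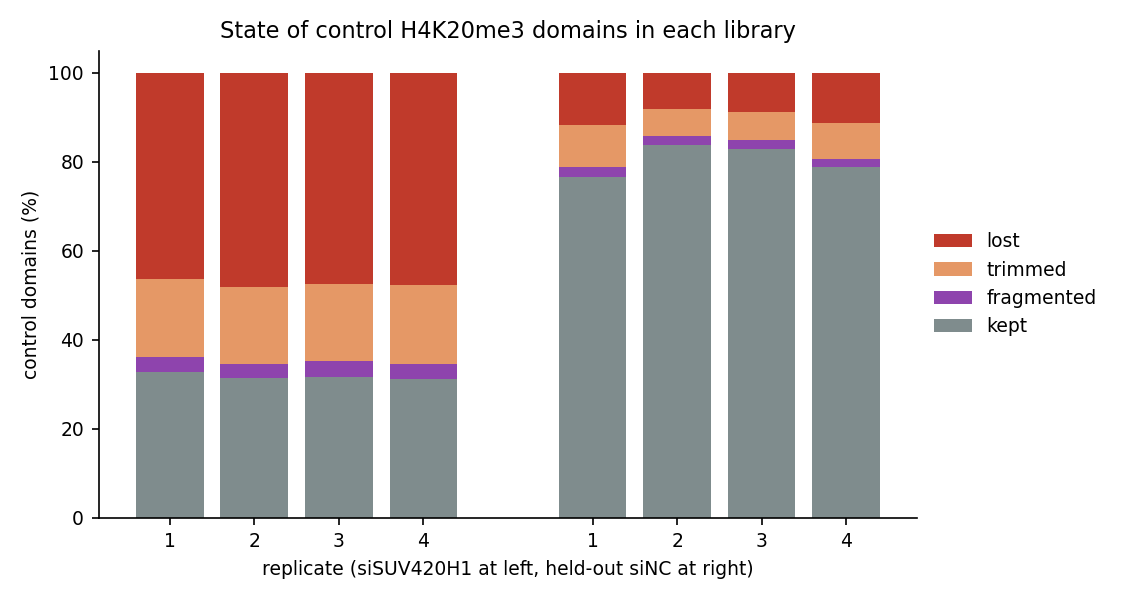
Each bar is 1 library and its segments give the percentage of control H4K20me3 domains that were lost, trimmed, fragmented or kept (y axis, summing to 100%), with the 4 siSUV420H1 libraries at the left and the 4 held-out siNC libraries at the right. The lost segment spans 46.3% to 48.0% in the siSUV420H1 bars and 8.003% to 11.7% in the siNC bars.

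Examples of each fate were picked for having the same state in all 4 siSUV420H1 libraries, so the likeness of these libraries is set by that choice. The widest domain lost in all 4 siSUV420H1 libraries (chr6:53579001-53634000, 55 kb, over no coding gene) had 0 kb under peaks in each of them, against 53, 52, 53 and 55 kb in siNC libraries 1 to 4. The widest trimmed domain (chr13:73385001-73477000, 92 kb) kept a single peak over 69, 67, 67 and 66 kb in siSUV420H1 libraries 1 to 4, against 89, 89, 92 and 92 kb under peaks in the siNC libraries. Its left end had receded by 19 to 22 kb and its right end by 4 to 5 kb. The widest fragmented domain (chrX:13192001-13496000, 304 kb, over ATXN3L, an ataxin 3-like deubiquitinase gene) held 7, 9, 8 and 9 separate peaks in siSUV420H1 libraries 1 to 4. These covered 243, 244, 246 and 243 kb, against 304 kb in each siNC library. The groups did not overlap in covered length at any of these 3 domains, which the way they were picked largely sets.

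**Figure D2:**
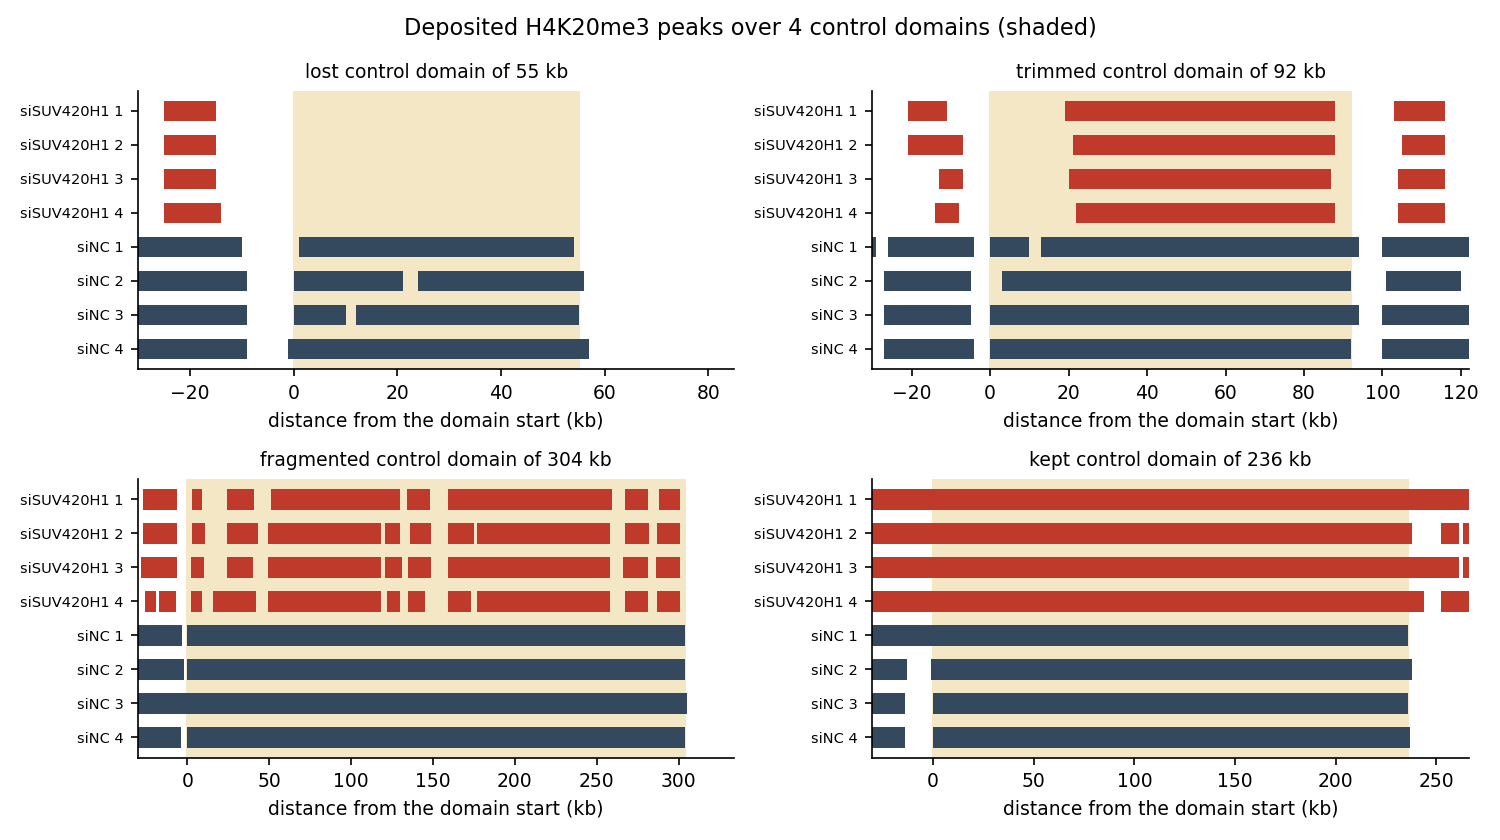
Deposited peaks (bars) of the 4 siSUV420H1 libraries (upper rows) and the 4 siNC libraries (lower rows) over a lost, a trimmed, a fragmented and a kept control domain (shaded), with distance from the domain start in kb on the x axis. The 55 kb lost domain holds no siSUV420H1 peak, the 304 kb fragmented domain holds 7 to 9 siSUV420H1 peaks, and the 236 kb kept domain is covered from end to end in all 8 libraries. The kept domain shown is not the widest. Kept domains of 407 kb on chromosome 7 and 285 kb on chromosome 21 are wider and hold no coding gene.

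The 8 widest domains lost in all 4 siSUV420H1 libraries measured 34 to 55 kb, and none of them lay over a coding gene. Most control domains lay over none either: 8753 of all 12855, and 3985 of the 5459 lost in at least 3 libraries. Whether the widest lost domains differed from the others in gene content was not tested. The wide fragmented domains included a 225 kb domain (chr9:115929001-116154000) over part of PAPPA, which encodes a protease that cleaves IGF-binding proteins. It had 102, 104, 89 and 93 kb under peaks in siSUV420H1 libraries 1 to 4, in 7 or 8 pieces, against 225, 225, 223 and 225 kb in siNC libraries 1 to 4. A 269 kb domain (chr7:40997001-41266000) over part of SUGCT, a mitochondrial CoA-transferase gene, lost far less: 259, 253, 251 and 252 kb remained in the siSUV420H1 libraries, in 2 to 4 pieces, against 268 or 269 kb in the siNC libraries. Among the wide trimmed domains, a 62 kb domain (chr1:186153001-186215000) over part of HMCN1, the extracellular matrix gene of hemicentin, had 29, 30, 28 and 28 kb left in siSUV420H1 libraries 1 to 4, against 61, 62, 62 and 62 kb in siNC libraries 1 to 4. Both of its ends had receded in every siSUV420H1 library, the left by 18 or 19 kb and the right by 14 or 15 kb. A 67 kb domain (chr10:90194001-90261000) over no coding gene was cut in the same way, to 33, 31, 31 and 31 kb with siSUV420H1, against 67, 64, 67 and 67 kb with siNC.

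The fate of a domain changed with its width. Of the 3184 domains of 5 to under 8 kb, 2251 were lost and 682 kept. Of the 273 domains of 50 kb or more, 2 were lost, 151 fragmented, 16 trimmed and 89 kept. Trimming was most frequent in between, with 698 of 2459 domains of 12 to under 20 kb and 502 of 1429 of 20 to under 50 kb. Because no peak was narrower than 5 kb and no gap shorter than 2 kb, a domain of under 12 kb could hardly be fragmented and one of 5 to under 8 kb hardly trimmed, so this mix is partly set by the peak lists themselves.

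The retained share is less bound by that limit. It averaged 22.9% ± 0.772 with siSUV420H1 and 63.9% ± 5.64 with siNC in domains of 5 to under 8 kb (SD, n = 4 each). It was 43.2% with siSUV420H1 and 91.3% with siNC at 8 to under 12 kb, 55.8% with siSUV420H1 and 92.6% with siNC at 12 to under 20 kb, and 61.1% with siSUV420H1 and 94.7% with siNC at 20 to under 50 kb. In domains of 50 kb or more it was 75.4% ± 0.413 with siSUV420H1 and 97.3% ± 0.728 with siNC. The retained share was lower with siSUV420H1 in all 5 classes (exact permutation p = 0.0286, adjusted p = 0.0286, n = 4 each). The largest difference, 48.0 percentage points below siNC, was in domains of 8 to under 12 kb, and the smallest, 21.9 below, in those of 50 kb or more.

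Within a library, the widest class retained 52.5 percentage points more than the narrowest with siSUV420H1 and 33.4 more with siNC, and this gap differed between the groups (difference 19.1, exact permutation p = 0.0286, adjusted p = 0.0286, n = 4 each). The sign of that contrast depended on the peaks used. With the widest 9307 peaks of every library, the smallest number in any of them, the gap was 39.8 points with siSUV420H1 and 55.6 points with siNC, a difference of -15.8. In that setting domains of 5 to under 8 kb were retained at 35.4% with siSUV420H1 and 41.4% with siNC, since that setting leaves out the narrowest peaks, of which the siNC libraries lose more. Domains of 50 kb or more were little changed by it, at 75.2% with siSUV420H1 and 97.0% with siNC.

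**Figure D3:**
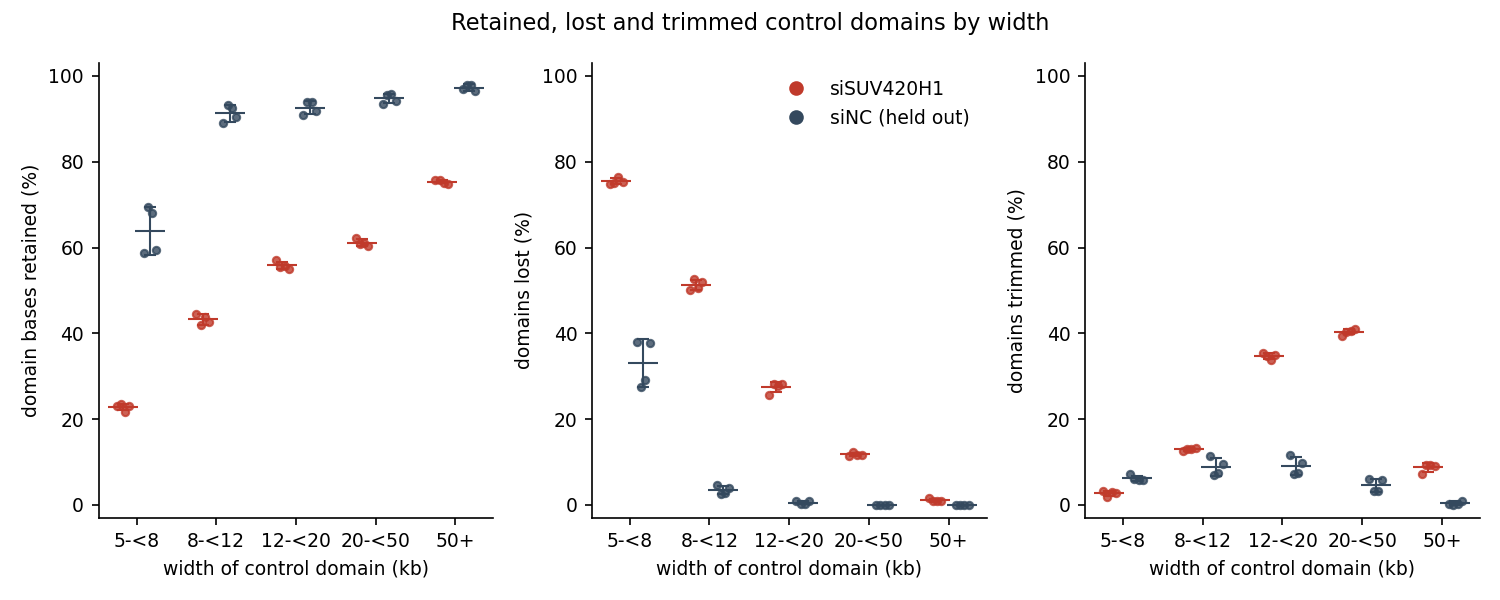
Percentage of control-domain bases retained (left), of domains lost (middle) and of domains trimmed (right) by the width of the control domain in kb, with siSUV420H1 at the left and held-out siNC at the right of each class; points are libraries, horizontal lines means and bars SD (n = 4). With siSUV420H1, lost domains make up 75.4% of the narrowest class and 1.10% of the widest, and trimmed domains peak at 40.4% in the class of 20 to under 50 kb.

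Whole loss showed the same order. With siSUV420H1, 75.4% of domains of 5 to under 8 kb, 51.3% at 8 to under 12 kb, 27.4% at 12 to under 20 kb, 11.8% at 20 to under 50 kb and 1.10% at 50 kb or more were lost. The siNC levels in the same classes were 33.1%, 3.45%, 0.555%, 0.0164% and 0%. Trimmed domains of 20 to under 50 kb were 40.4% ± 0.631 of their class with siSUV420H1 and 4.55% ± 1.53 with siNC (SD, n = 4 each, exact permutation p = 0.0286, adjusted p = 0.0286). In domains of 5 to under 8 kb trimming was rarer with siSUV420H1, at 2.77%, than with siNC, at 6.26% (adjusted p = 0.0286, exact permutation test). Fragmentation reached 58.6% ± 1.86 of domains of 50 kb or more with siSUV420H1, against 23.6% ± 0.846 with siNC, without overlap between the groups, but the adjusted p over the 5 classes was 0.0714 (exact permutation p = 0.0286).

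In wide domains more was lost at the ends than in the centre. In domains of 20 kb or more, the outer 5 kb on both sides were retained at 47.9% ± 0.766 with siSUV420H1 and 89.8% ± 1.68 with siNC (SD, n = 4 each). The central 5 kb were retained at 70.7% ± 0.885 with siSUV420H1 and 97.4% ± 0.687 with siNC. Edge minus centre was -22.8 percentage points with siSUV420H1 and -7.58 with siNC, a difference of -15.2 (exact permutation p = 0.0286, adjusted p = 0.0286 over 6 measures). The same contrast over 10 kb in domains of 50 kb or more was -21.0 with siSUV420H1 and -5.36 with siNC. The centre was not spared either, since both positions were lower with siSUV420H1 in every library.

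**Figure D4:**
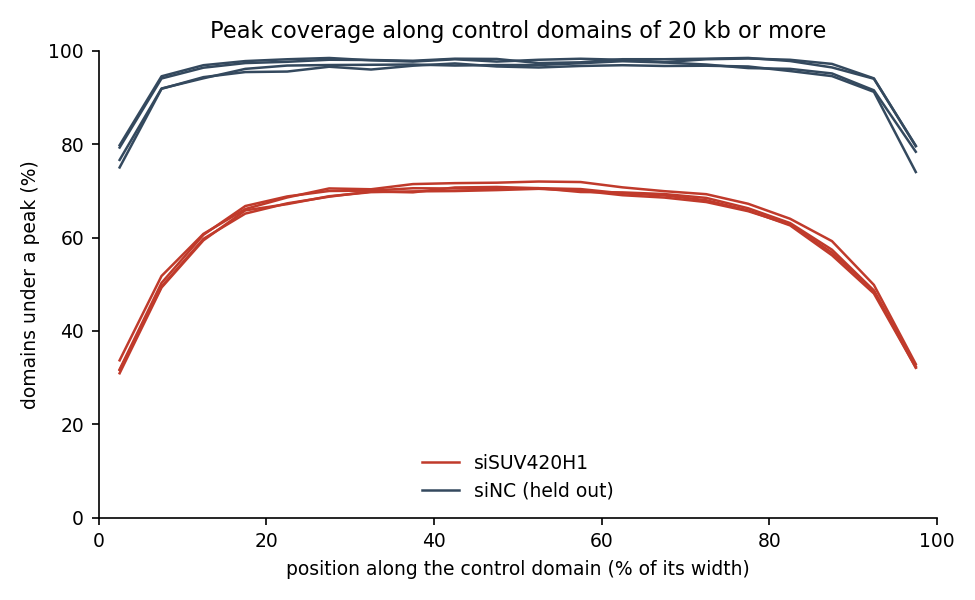
Percentage of control domains of 20 kb or more that lie under a peak (y axis) at 20 positions along the domain, given as a percentage of its width (x axis); each line is 1 of the 4 siSUV420H1 libraries or 1 of the 4 held-out siNC libraries. Coverage in the outermost positions is 32.2% with siSUV420H1 and 77.8% with siNC, and in the middle 70.8% with siSUV420H1 and 97.3% with siNC.

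Without matching for width, trimmed domains also kept less after siSUV420H1 than among controls. A trimmed domain kept a median of 60.5% ± 0.781 of its bases with siSUV420H1 and 70.5% ± 0.684 with siNC (SD, n = 4 each). The mean length cut off was 7.51 kb with siSUV420H1 and 3.73 kb with siNC, and 77.6% of trimmed domains were cut at both ends with siSUV420H1, against 41.6% with siNC. A fragmented domain held 2.34 pieces on average with siSUV420H1 and 2.11 with siNC, and retained 66.7% of its bases with siSUV420H1 and 88.4% with siNC. Gaps within fragmented domains had a median of 5 kb in each siSUV420H1 library and reached 41 to 64 kb. All of these differences passed the threshold (exact permutation p = 0.0286, adjusted p = 0.0286 over 7 measures, n = 4 each). The trimmed and fragmented domains were not of the same widths in the 2 groups. Of domains of 20 to under 50 kb, 40.4% were trimmed with siSUV420H1 and 4.55% with siNC. In those of 5 to under 8 kb the shares were 2.77% with siSUV420H1 and 6.26% with siNC. Whether trimming was deeper at matched width was not tested.

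Domains that survived could also lie under a wider peak than in controls. Peaks that ran at least 5 kb past the domain's ends touched 13.7% ± 1.13 of the surviving domains with siSUV420H1 and 7.52% ± 1.07 with siNC (adjusted p = 0.0286, exact permutation test, n = 4 each). On chromosome 19 the share was 55.4% ± 4.68 with siSUV420H1 and 16.6% ± 3.58 with siNC. The excess of chromosome 19 over the other chromosomes was 43.6 percentage points with siSUV420H1 and 9.34 with siNC (adjusted p = 0.0286, exact permutation test).

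Domains over zinc finger genes were mostly kept, unlike those over other coding genes or over none. Domains were grouped by whether they held at least 200 bp of no protein-coding gene (8753 domains), of a coding gene other than a zinc finger gene (3710) or of a zinc finger gene (392). Zinc finger genes were taken by symbol (ZNF, ZSCAN, ZKSCAN, ZBTB, ZFP and ZIM genes); many encode KRAB zinc finger repressors, which recruit heterochromatin enzymes to transposons. Of the zinc finger domains 334 were kept and 27 lost, against 1378 kept and 1447 lost of the other coding domains and 2327 kept and 3985 lost of those over no coding gene.

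Zinc finger domains were retained at 93.5% ± 0.528 with siSUV420H1 and 94.0% ± 1.30 with siNC, a difference within the spread of the libraries (exact permutation p = 0.543, adjusted p = 0.543, n = 4 each). By width, those of 8 to under 12 kb were lower, at 82.9% with siSUV420H1 and 90.2% with siNC, and those of 50 kb or more higher, at 99.4% with siSUV420H1 and 97.4% with siNC (adjusted p = 0.0374 for both, exact permutation test over 55 measures); the other 3 classes did not pass. Domains over no coding gene were retained at 49.2% ± 0.629 with siSUV420H1 and 89.7% ± 1.92 with siNC, and those over other coding genes at 53.4% ± 1.13 with siSUV420H1 and 90.4% ± 1.77 with siNC. The zinc finger class exceeded the class without coding gene by 44.3 percentage points with siSUV420H1 and 4.24 with siNC, and this gap differed by 40.1 points (exact permutation p = 0.0286, adjusted p = 0.0357 over 5 measures). The gap was present at every width: it differed by 45.7 points in domains of 5 to under 8 kb and by 26.1 points in those of 50 kb or more, with an adjusted p of 0.0374 in each of the 5 width classes (exact permutation test over 55 measures).

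Whole loss of zinc finger domains did differ, at 7.47% ± 0.958 with siSUV420H1 and 3.80% ± 1.05 with siNC (adjusted p = 0.0286, exact permutation test, n = 4 each). All but 2 of the 27 lost zinc finger domains lay off chromosome 19. Zinc finger domains off chromosome 19 (177) were retained at 89.5% ± 0.739 with siSUV420H1 and 95.5% ± 0.828 with siNC. The 215 on chromosome 19 were retained at 97.1% ± 0.440 with siSUV420H1 and 92.5% ± 1.76 with siNC, higher after the knockdown (adjusted p = 0.0381 for both, exact permutation test over 8 measures). Chromosome 19 domains over other coding genes (38) were retained at 72.5% ± 2.41 with siSUV420H1 and 93.0% ± 0.450 with siNC (adjusted p = 0.0381, exact permutation test). Those on chromosome 19 over no coding gene (96) did not pass, at 81.5% with siSUV420H1 and 84.1% with siNC (exact permutation p = 0.371).

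Other coding genes went with a smaller difference, which was not uniform. The class exceeded domains over no coding gene by 4.25 percentage points with siSUV420H1 and 0.637 with siNC (difference 3.61, adjusted p = 0.0357, exact permutation test). By width the difference was 12.9 points in domains of 8 to under 12 kb, 4.50 at 12 to under 20 kb and -2.79 in those of 50 kb or more (adjusted p = 0.0374 in each, exact permutation test). It was 1.59 at 5 to under 8 kb and -0.03 at 20 to under 50 kb, neither past the threshold (adjusted p = 0.419 and 0.931, exact permutation test).

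Gene starts in control domains were less often retained than the pooled bases of the domains that hold them. Each start counted once, while wide domains weigh more in the pooled bases. Starts were not compared with the rest of their own domain or at matched width, so an effect of position apart from width was not tested. RefSeq gave a start for 15812 of 19974 coding genes, and 531 of these starts lay in control domains. Starts were retained at 57.1% ± 1.67 with siSUV420H1 and 90.9% ± 0.419 with siNC, and the bases of the same domains at 70.2% ± 1.07 with siSUV420H1 and 95.3% ± 0.373 with siNC. Starts minus bases was -13.1 percentage points with siSUV420H1 and -4.41 with siNC (difference -8.71, exact permutation p = 0.0286, adjusted p = 0.0286 over 3 measures, n = 4 each).

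Promoter sequences of genes in lost and in kept domains are given to show their range of CpG content (RefSeq, GRCh38.p14, from 250 bases before to 50 bases after the start, on the strand of the gene, every CG in capitals). RNF128, which encodes the ubiquitin ligase GRAIL of anergic T cells, starts in a lost domain of 32 kb (chrX:106682001-106714000), with 0 kb under peaks in each siSUV420H1 library and 31, 32, 32 and 32 kb in siNC libraries 1 to 4. TM4SF20, which encodes a tetraspanning membrane protein, starts in a lost domain of 21 kb (chr2:227378001-227399000), with 0 kb in each siSUV420H1 library and 21, 21, 21 and 20 kb in siNC libraries 1 to 4. The zinc finger genes ZNF26 (chr12:132980001-133216000, 236 kb), ZNF716 (chr7:57384001-57614000, 230 kb), ZNF479 (chr7:57043001-57217000, 174 kb) and ZNF141 (chr4:334001-479000, 145 kb) start in the 4 widest kept domains with a gene start, which were covered in full in each siSUV420H1 library.
RNF128 promoter, chrX:106693588-106693887, plus strand: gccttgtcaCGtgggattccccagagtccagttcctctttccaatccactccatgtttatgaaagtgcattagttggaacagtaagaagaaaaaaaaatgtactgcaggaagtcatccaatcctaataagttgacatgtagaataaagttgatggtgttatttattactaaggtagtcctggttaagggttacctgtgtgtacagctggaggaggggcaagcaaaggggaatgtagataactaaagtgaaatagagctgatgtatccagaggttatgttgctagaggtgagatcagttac
TM4SF20 promoter, chr2:227379257-227379556, minus strand: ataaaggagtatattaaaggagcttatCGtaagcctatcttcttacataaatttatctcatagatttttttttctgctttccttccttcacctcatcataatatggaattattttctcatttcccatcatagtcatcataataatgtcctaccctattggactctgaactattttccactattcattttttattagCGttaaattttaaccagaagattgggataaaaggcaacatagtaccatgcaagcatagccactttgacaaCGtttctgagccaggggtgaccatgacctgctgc
ZNF26 promoter, chr12:132986117-132986416, plus strand: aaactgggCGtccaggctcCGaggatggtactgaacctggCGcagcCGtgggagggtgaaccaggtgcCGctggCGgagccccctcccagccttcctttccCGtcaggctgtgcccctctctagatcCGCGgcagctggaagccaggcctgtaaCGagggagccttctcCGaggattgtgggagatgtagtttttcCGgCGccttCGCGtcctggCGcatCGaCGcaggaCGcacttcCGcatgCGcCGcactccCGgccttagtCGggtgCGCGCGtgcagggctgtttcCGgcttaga
ZNF716 promoter, chr7:57449927-57450226, plus strand: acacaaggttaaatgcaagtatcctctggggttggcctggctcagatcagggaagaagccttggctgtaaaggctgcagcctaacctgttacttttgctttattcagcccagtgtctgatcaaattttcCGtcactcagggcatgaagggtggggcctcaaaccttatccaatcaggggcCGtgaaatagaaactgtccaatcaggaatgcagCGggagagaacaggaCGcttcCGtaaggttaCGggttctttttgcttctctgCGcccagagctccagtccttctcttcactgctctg
ZNF479 promoter, chr7:57139815-57140114, minus strand: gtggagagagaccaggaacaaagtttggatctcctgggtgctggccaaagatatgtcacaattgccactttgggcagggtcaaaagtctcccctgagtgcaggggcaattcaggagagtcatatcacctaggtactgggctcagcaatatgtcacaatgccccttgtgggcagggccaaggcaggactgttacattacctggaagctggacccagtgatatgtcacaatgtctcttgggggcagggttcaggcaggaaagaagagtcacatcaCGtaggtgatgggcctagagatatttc
ZNF141 promoter, chr4:337564-337863, plus strand: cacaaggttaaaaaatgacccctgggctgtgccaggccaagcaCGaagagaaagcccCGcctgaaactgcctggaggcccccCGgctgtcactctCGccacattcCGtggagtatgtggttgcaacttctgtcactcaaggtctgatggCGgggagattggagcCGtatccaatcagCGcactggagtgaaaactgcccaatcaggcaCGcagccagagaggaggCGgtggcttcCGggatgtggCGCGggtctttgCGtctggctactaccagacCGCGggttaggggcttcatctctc

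The promoters of RNF128 and TM4SF20 hold 1 and 3 CpGs, and those of ZNF26, ZNF716, ZNF479 and ZNF141 hold 28, 7, 1 and 16, so single promoters of kept domains can be as poor in CpG as those of lost ones. Among all 15812 promoters the median was 22 CpGs per 300 bases, and among the 531 in control domains it was 13. The median was 6 in lost (149 promoters), 3 in trimmed (52), 2 in fragmented (32) and 20 in kept domains (251), and 17 in kept domains without zinc finger genes (143). The motif GGGCGG, searched on both strands and overlapping CG by its own letters, was present in 27.5% of promoters in lost domains, 54.2% in kept domains and 58.5% of all promoters. The motif TATAAA, on either strand, was present in 16.1% of promoters in lost domains, 26.9% in trimmed, 31.3% in fragmented, 9.56% in kept domains and 9.64% of all. CCAAT was present on either strand in 34.9% of promoters in lost domains, 41.4% in kept domains and 36.3% of all. These shares are descriptions of the letters and had no test.

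Control domains lay over 2741 coding genes. After siSUV420H1 no control-domain base of the gene was left under a peak in any of the 4 libraries for 665 genes (24.3%), and 80% or more was left in all 4 libraries for 1000 (36.5%). The covered length was lower in every siSUV420H1 library than in every siNC library for 1249 genes (45.6%) and higher for 2 (0.073%). These lengths were not held out: the domains come from the same siNC libraries, whose values mostly lie near the full domain length. That leaves little room for a higher value, so the imbalance between these counts is largely set by the definition. The median gene retained 67.0% of its control-domain bases. With only the widest 9307 peaks of each library, 344 of 2066 genes had no mark left. Against the background of all 2741, 283 of the 346 zinc finger genes in control domains had 80% or more left and 10 had no mark left. Among the 10, ZNF157 (chrX:47370578-47414498) had 0 kb in each siSUV420H1 library and 5.50 kb in each siNC library. ZNF10, ZNF140, ZNF26, ZNF84, ZNF268 and ZNF891 share the kept 236 kb domain on chromosome 12, where the deposited peaks covered all of it in all 8 libraries.

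The clustered protocadherins, neuronal cell adhesion genes with stochastic promoter choice, also kept the mark: all 20 members in control domains had 80% or more left, but they share 5 domains. PCDHGA1 (chr5:141330514-141512975), whose span contains other members, had 47, 46, 47 and 47 kb with siSUV420H1 and 44, 42, 46 and 46 kb with siNC.

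Of 50 interferon-stimulated genes 14 lay in control domains, and of 42 chemokine genes 8, against 2741 of all 19974 coding genes. Of 14 interferon-stimulated genes in control domains, 7 had no mark left and 1 had 80% or more, and the median retained 1.10% of its control-domain bases. IFI16, a sensor of nuclear DNA (chr1:158999976-159055151), had 0 kb in each siSUV420H1 library and 9 kb in each siNC library. GBP2, an interferon-induced GTPase (chr1:89106132-89126114), had 0 kb in each siSUV420H1 library, against 2.11, 2.11, 1.11 and 2.11 kb in siNC libraries 1 to 4. SAMD9, an antiviral gene (chr7:93099518-93117979), was the exception, with 16.98, 16.98, 16.98 and 17.98 kb in siSUV420H1 libraries 1 to 4 and 17.98 kb in each siNC library. Its neighbour SAMD9L (chr7:93130056-93148385) had 0.385 kb in siSUV420H1 library 1 and 0 kb in the other three, against 4.385 kb in each siNC library.

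Chemokines, small proteins that attract leukocytes, had 8 members in control domains, 5 of them with no mark left, in 3 domains, and none with 80% or more. CXCL9, CXCL10 and CXCL11, ligands of CXCR3 on T cells, share 1 domain of 47 kb and had 0 kb in each siSUV420H1 library. CXCL10 (chr4:76021118-76023497) had 2.38 kb in each siNC library, while CXCL9 (chr4:76001275-76007509) had 0, 5.51, 5.51 and 5.51 kb in siNC libraries 1 to 4. CCL28, a mucosal chemokine (chr5:43356975-43412391), kept part of its mark, with 16.03, 13, 16.03 and 6 kb with siSUV420H1 and 25.03, 26.03, 24.03 and 25.03 kb with siNC. Of 2 nucleic acid sensing genes in control domains 1, IFI16, had no mark left. The other, AIM2, the sensor of the DNA inflammasome whose annotated span overlaps that of IFI16 (chr1:159055051-159147132), had 9, 8, 8 and 9 kb with siSUV420H1 and 33, 36, 36 and 36 kb with siNC. Leaving out 1 siNC library drew domains from peaks in 2 of the remaining 3, so further genes could enter. The number with no mark left was then 2 without siNC library 1 or 3 and 3 without siNC library 2. Among antigen presentation genes, ERAP1, ERAP2 and HLA-DPA1 were in control domains and all 3 had no mark left. ERAP1 and ERAP2, peptidases that trim peptides for MHC class I, overlap each other and share a domain of 7 kb. HLA-DPA1 lies in a domain of 5 kb and had 4.43, 0, 4.43 and 4.43 kb in siNC libraries 1 to 4. Of all control domains of 5 to under 8 kb, 70.7% were lost in at least 3 of the 4 siSUV420H1 libraries.

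Epithelial genes showed the same mixture of whole and partial loss. Of 8 keratins in control domains 4 had no mark left and 1 had 80% or more. KRT31, a hair keratin (chr17:41393721-41397608), had 0 kb in each siSUV420H1 library and 3.89 kb in each siNC library, while KRT34 (chr17:41377669-41383816), a neighbour of the same family, had 6.15 kb in all 8 libraries. Of 15 genes of the epidermal differentiation complex, which encodes proteins of the cornified envelope, 8 had no mark left and none had 80% or more, against 1 with 80% or more without siSUV420H1 library 4. SPRR2G (chr1:153149582-153203278) had 29, 30, 30 and 29 kb with siSUV420H1 and 41, 42, 42 and 42 kb with siNC, while SPRR2E (chr1:153093135-153094526) had 0 kb in each siSUV420H1 library and 1.39 kb in each siNC library. TP63 (chr3:189596746-189897276), the master regulator of squamous identity, kept 56.3, 52.3, 48.3 and 50.3 kb with siSUV420H1, against 110.3, 101.5, 112.5 and 113.5 kb with siNC. A mark over a gene says nothing of its expression, which was not analysed here, so squamous markers under the mark do not speak for or against the cell type.

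Of the other lists, 13 of 392 olfactory receptor genes lay in control domains, 5 with 80% or more left and 2 with no mark left. Leaving out 1 library gave 2 to 4 olfactory receptor genes with no mark left, with 4 without siNC library 3 or 4. Of 11 imprinted genes 4 had 80% or more left and 1 had no mark left, against 2 without siSUV420H1 library 4 and 3 without siNC library 1 or 4. For these lists too, leaving out an siNC library changed the domains, so further genes could enter. SNRPN (chr15:24823637-24978723), of the Prader-Willi region, had 75, 70, 71 and 75 kb with siSUV420H1 and 68, 59, 67 and 65 kb with siNC. PPP1R9A (chr7:94907236-95296415), which encodes neurabin, had 0, 0, 0 and 6 kb with siSUV420H1 and 47, 54, 54 and 52.0 kb with siNC. Among genes of H4K20 methylation and heterochromatin, 2 of 27 lay in control domains. PHF2, a histone demethylase gene (chr9:93576584-93679587), had 0 kb in each siSUV420H1 library and 8, 8, 8 and 7 kb in siNC libraries 1 to 4. SETDB1, an H3K9 methyltransferase gene (chr1:150926263-150964737), had 6 kb in each siSUV420H1 library and 6, 6, 6 and 5 kb in siNC libraries 1 to 4. Of 46 replication and cell cycle genes 3 lay in control domains: CDK1, the mitotic kinase (chr10:60778331-60794852), had 0 kb in each siSUV420H1 library and 9.67, 11.7, 11.7 and 11.7 kb in siNC libraries 1 to 4, while CDK6 and RB1 retained 87.3% and 90.8%. Of 19 markers of fibroblasts, endothelium and leukocytes 6 lay in control domains, 3 of them with no mark left (PECAM1, COL3A1 and DCN) and 2 with 80% or more (CD14 and CDH5). Many of these genes overlap a domain by only part of their span.

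Chromosomes differed widely. The retained share was lower with siSUV420H1 than with siNC on 21 of 23 chromosomes (adjusted p = 0.0313 on each, exact permutation test over 23). The lowest means with siSUV420H1 were on chromosome 4, at 41.9% ± 0.738 against 89.6% ± 2.80 with siNC, chromosome 1, at 42.8% ± 2.10 against 90.3% ± 1.02, and chromosome 6, at 43.3% ± 1.39 against 91.0% ± 1.67. The highest were on chromosome 19, at 91.5% ± 0.830 against 90.8% ± 2.00 with siNC, chromosome 21, at 76.1% ± 0.749 against 93.1% ± 1.55, and chromosome 22, at 74.2% ± 0.731 against 92.4% ± 1.13 (SD, n = 4 each). In retained share chromosome 19 did not pass (adjusted p = 0.514, exact permutation test), nor did chromosome 14, at 73.1% ± 4.21 with siSUV420H1 and 80.7% ± 7.98 with siNC (adjusted p = 0.179). Both calls depended on the control domains: with only bases under peaks in all siNC libraries, chromosome 14 retained 74.7% with siSUV420H1 and 90.3% with siNC, and chromosome 19 retained 93.4% with siSUV420H1 and 96.1% with siNC (adjusted p = 0.0286 for both, exact permutation test). Chromosome 14 also passed without siNC library 2, 3 or 4, with differences of -12.3 to -12.1 (adjusted p = 0.0299, exact permutation test). Without siNC library 1 the difference was -12.2 (adjusted p = 0.0597, exact permutation test). In these 4 runs a held-out domain had to lie under peaks in every other siNC library that remained, a stricter rule than in the main run. With the widest 9307 peaks chromosome 19 was higher, at 93.9% with siSUV420H1 and 90.4% with siNC (adjusted p = 0.0299, exact permutation test). Whole loss, in contrast, was more frequent with siSUV420H1 on all 23 chromosomes (adjusted p = 0.0286 on each, exact permutation test over 23). Lost domains on chromosome 19 averaged 10.2% with siSUV420H1 and 6.98% with siNC. Those on chromosome 14 averaged 23.6% with siSUV420H1 and 13.9% with siNC. On chromosome 21 they averaged 34.0% with siSUV420H1 and 12.4% with siNC, and on chromosome 22 42.1% with siSUV420H1 and 10.1% with siNC. Over all chromosomes the shares were 47.3% with siSUV420H1 and 9.92% with siNC.

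**Figure D5:**
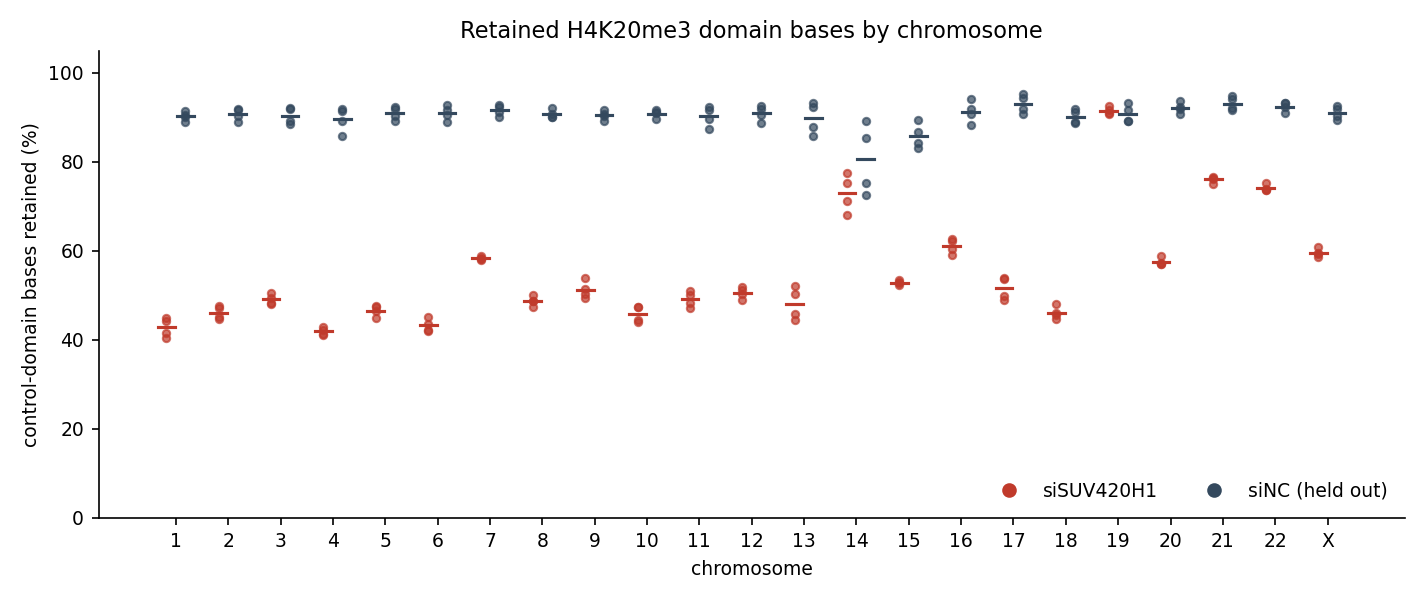
Percentage of control-domain bases retained (y axis) by chromosome (x axis), with the 4 siSUV420H1 libraries at the left and the 4 held-out siNC libraries at the right of each chromosome; points are libraries and lines group means. The siSUV420H1 points reach 91.5% on average on chromosome 19, against 90.8% with siNC, and 41.9% on chromosome 4, and the groups overlap on chromosomes 14 and 19.

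Set against all other chromosomes within each library, 9 chromosomes retained more after siSUV420H1 than their siNC level gave, 11 retained less and 3 did not pass (exact permutation test, Benjamini-Hochberg over 23). Chromosome 19 stood 40.6 percentage points above the rest with siSUV420H1 and 0.683 above with siNC (difference 39.9, adjusted p = 0.0329, exact permutation test). Chromosome 4 stood at -11.3 with siSUV420H1 and -0.53 with siNC (difference -10.8, adjusted p = 0.0329, exact permutation test). Chromosome 14 had the widest spread among libraries, and its siNC libraries were the least retained of any chromosome. Peaks on it covered 11.02, 13.3, 10.1 and 12.3 Mb in siSUV420H1 libraries 1 to 4 and 9.68, 11.2, 11.9 and 9.10 Mb in siNC libraries 1 to 4. Between 40 and 50 Mb of it, the covered length was 4.68, 6.25, 4.15 and 5.49 Mb with siSUV420H1 and 2.68, 3.63, 4.16 and 2.41 Mb with siNC, so the whole covered length there was not lower after the knockdown, while between 90 and 100 Mb it was 0.237 to 0.328 Mb with siSUV420H1 and 0.529 to 0.545 Mb with siNC.

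Regional differences ran below the scale of chromosomes. Of 462 windows of 5 Mb with at least 10 control domains, the median window retained 49.2% with siSUV420H1, while 18 retained under 25% and 19 over 90%. Of these 19, 5 lay on chromosome 19, 3 on chromosome 14 and 11 elsewhere. The most retained, chr21:5000001-10000000, kept all 18 of its domains (99.8% ± 0.0977 of their bases, SD, n = 4). Its domains made up 1321 kb of the 3.436 Mb of control domains on chromosome 21. Likewise chr22:10000001-15000000, retained at 97.6%, held 972 kb of the 1.762 Mb on chromosome 22. The high retained shares of these 2 chromosomes thus rest largely on single regions. The window chr19:20000001-25000000, with 45 zinc finger domains among 86, lost none and kept 79. The least retained window, chr17:45000001-50000000, kept none of its 10 domains and lost 8, with 14.2% ± 10.4 of their bases retained. Of the 47 domains in chr4:135000001-140000000, 33 were lost and 4 kept, with 22.9% ± 0.818 retained. Windows were ranked on these same values, so their extremes are a description.

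Retention with the distance to the nearest other control domain depended on domain width. Over all widths, where that domain lay under 10 kb away, 56.8% ± 0.620 was retained with siSUV420H1 and 90.9% ± 1.91 with siNC, and where it lay 50 kb or more away, 48.1% ± 1.23 with siSUV420H1 and 88.6% ± 2.06 with siNC. This gap was 8.74 percentage points with siSUV420H1 and 2.29 with siNC (difference 6.45, adjusted p = 0.0286, exact permutation test over 4 measures). At matched width the gap with siSUV420H1 was above 0 only at 5 to under 8 kb, where it was 3.20 points with siSUV420H1 and 0.215 with siNC. It was -2.99 with siSUV420H1 and -3.38 with siNC at 8 to under 12 kb, -0.26 with siSUV420H1 and -3.22 with siNC at 12 to under 20 kb, and -2.31 with siSUV420H1 and -1.68 with siNC at 20 to under 50 kb. In domains of 50 kb or more it was -14.9 with siSUV420H1 and -1.58 with siNC, and an isolated domain of that width was retained at 88.1% with siSUV420H1 and 98.6% with siNC. Only 19 control domains of that width were isolated in this way, against 165 with another under 10 kb away, so this value rests on few domains. The gap differed between the groups at 5 to under 8 kb, 12 to under 20 kb and 50 kb or more (adjusted p = 0.0374 in each, exact permutation test over 55 measures), and did not pass at 8 to under 12 kb (adjusted p = 0.609) or 20 to under 50 kb (adjusted p = 0.444). Lost domains also lay next to each other. Within 50 kb, the next domain was lost in 52.2% of cases after a lost domain and in 29.8% after one that was not lost. At 50 kb or more the shares were 52.1% and 41.4%. Of all domains, at any distance, 42.5% were lost. These shares were not matched for width, gene content or chromosome.

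The inhibitor arm of the series, A-196 (2.5 µM, 3 libraries) against DMSO (3 libraries), was measured in the same way on its own 8164 DMSO domains. A-196 is an inhibitor of SUV420H1 and SUV420H2. Retained bases were 42.3% ± 11.1 with A-196 and 93.0% ± 1.82 with DMSO, lost domains 51.9% ± 10.3 with A-196 and 8.15% ± 1.90 with DMSO, and fragmented domains 7.41% ± 0.726 with A-196 and 2.62% ± 0.893 with DMSO (SD, n = 3 each). The siRNA difference in retained share was -37.7 percentage points and that of the inhibitor -50.8. They lay 13.1 points apart (exact permutation p = 0.629, adjusted p = 0.904 over 5 measures, 1400 assignments). The permutation shuffled labels within each arm without first removing the treatment differences. Its spread therefore contains those differences, and it cannot decide whether the arms differ. The smallest adjusted p of the 5, 0.579, was that of the fragmented share, whose difference was 1.40 points with siSUV420H1 and 4.78 with A-196 (exact permutation). The A-196 libraries ranged from 33.0% to 54.6% retained, a spread that also limits this test.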

How the data were processed

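The deposited files are lists of broad H4K20me3 peaks, 1 list per library, each row a chromosome, a start and an end. They are on hg38; the tools listed, per the submitters' processing notes, are cutadapt 4.4, Bowtie, Picard 2.27.3 and bedtools 2.30.0. The deposited lists' labels say that the authors removed duplicates and called each siRNA library alone against 1 IgG library, whose label names no treatment. No source used here names the peak caller or how it was set. The positions hold no score or count, so depth is unknown and no interval that needs it is given. Ends fall on whole kb, no peak is under 5 kb and no gap under 2 kb, so smaller changes are not visible.

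Libraries were grouped by title. Chromosome Y was left out, and 377 control runs under 5 kb were not used. Gene spans and promoters came from RefSeq tables of GRCh38.p14; exons, repeats and the base content of domains were not analysed here. A gene belonged to a domain with at least 200 bp of its span in it, and overlapping genes cannot be told apart. Group means of per-library percentages were compared by exact two-sided permutation over the 70 assignments of 8 libraries, with Benjamini-Hochberg adjustment within each family and a threshold of 0.05. Fates and tests were tested on simulated data (Python 3.11.15, numpy 2.4.6, matplotlib 3.10.9). Named domains are the 8 widest of each fate shared by all 4 siSUV420H1 libraries, with their coding genes; named genes are up to 4 members per list in the widest domains of genes with no mark left and up to 3 of the other outcomes; named chromosomes are the 3 highest and 3 lowest; printed promoters come from the widest lost and kept domains with a gene start. The rule for genes was written by the fate of the domain; since a gene can span several domains, its own outcome was used instead. Not every item so named is printed, and chromosome 14 and the 5 Mb windows were picked after their values were seen. The domains, 14 gene lists and tests were chosen with earlier results of these data known, and the lists get no test. Replicate numbers did not pair the libraries: the correlation of same-numbered deviations was -0.0554 to 0.0134. Alternatives covered the definition of domains and states, the peaks used, chromosomes, gene flanks, the group summary, the replicate block and single libraries left out.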

Additional observations from a re-analysis of the deposited data

Results flagged for a closer look

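Of 200 groups of 4 libraries examined, 8 had a library whose gap to the nearest other exceeded Dixon's 95% critical value; chance gives about 1 in 20 groups. siSUV420H1 library 1 stood apart in 6 of them: it was lowest in the trimmed share of domains of 50 kb or more, at 7.24% (others 9.07% to 9.39%), and highest in the retained share of domains over no coding gene, at 50.1%, in that of such domains off chromosome 19, at 49.7%, in that of chromosome 20, at 58.9%, in that of the outer 5 kb of domains of 20 kb or more, at 49.1%, and in the median retained by trimmed domains, at 61.6%. siSUV420H1 library 2 had the fewest pieces per domain still touched, 1.08. siNC library 4 had the highest lost share of domains of 20 to under 50 kb, 0.0657%, against 0% in the other siNC libraries. The mean pieces per domain were 1.09 with siSUV420H1 and 1.02 with siNC, and chromosome 20 retained 57.6% on average with siSUV420H1 and 92.1% with siNC.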

How the results depend on the processing

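The retained, lost, trimmed, fragmented and kept shares kept their direction under every alternative run. Group medians gave differences of -38.0, 37.5, 10.2, 1.45 and -49.3 percentage points, with an exact permutation p of 0.0571, the smallest medians can give here. With replicate numbers as pairs (the replicate block, exact p = 0.125, the smallest 4 pairs allow) the differences were -37.7, 37.4, 9.96, 1.40 and -48.8, although the numbers did not pair the libraries. Leaving out 1 library at a time gave -38.5 to -37.5 for retained, 37.2 to 38.0 for lost, 9.86 to 12.2 for trimmed, 1.34 to 1.96 for fragmented and -52.1 to -48.6 for kept, all past the threshold. It gave 1664 to 3436 mixed domains. Without 1 siSUV420H1 library, all 3 that remain must share a state. Without 1 siNC library the rule for a domain changed too: counted domains needed peaks in 2 of the remaining 3, and held-out domains in every other one that remained. With union regions (10501) the fragmented difference was 0.19 (exact permutation p = 0.257), with 485 fragmented and 2607 kept. With the widest 9307 peaks the width contrast reversed for the retained share, at -15.8, and was -2.77 for the lost share (exact permutation p = 0.114); 2693 domains were lost and 344 coding genes had no mark left. Domains of at least 10 kb (6345) held 1401 lost, 2453 kept and 806 mixed. A lower retained share was called on 21 to 23 chromosomes. Requiring the same state in all 4 libraries gave 870 trimmed and 3996 mixed. Trimming set at under 50% gave 323 trimmed, 1028 mixed and 5732 kept, and at under 90% gave 2479 trimmed. Kept domains outnumbered lost ones with the widest peaks, with domains of at least 10 kb and with trimming under 50%. The gap between other coding genes and none was 1.59 at 5 to under 8 kb, -0.031 at 20 to under 50 kb and -2.79 at 50 kb or more. The cause of these changes was not tested. The other 357 alternative values of the main comparisons kept their side of the threshold or stayed within 1.5 times. Among further values, 317 stayed and 23, all counts of genes in small lists, moved. Depth is unknown, so a domain under the calling threshold cannot be told from one without the mark.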

Other observations

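Mixed domains, those without 1 state in at least 3 siSUV420H1 libraries, numbered 1552. In 505 of them (32.5%) the libraries showed lost, trimmed and kept states, in 351 (22.6%) kept and trimmed states, in 328 (21.1%) lost and trimmed states and in 155 (9.99%) lost and kept states. Domains over no annotated gene of any kind, coding or not, were 48.1% of lost, 40.8% of trimmed, 28.8% of fragmented and 35.0% of kept domains.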
